A study of Yarrowia lipolytica with 4 samples.

Results

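The genes described here are 65 genes of mRNA decay and surveillance in the oleaginous yeast Yarrowia lipolytica, of 6797 genes in the deposited table. They were taken by annotation alone: the pathway column had to hold RNA degradation (40 of the 65) or the mRNA surveillance pathway (26, of which 1 is in both), and genes also assigned to the spliceosome, glycolysis, ribosome biogenesis, the cell cycle, meiosis or protein refolding were left out. That step removed 30 of 95 genes, among them the exonuclease XRN1 and most of the LSM ring. RNA was measured in strain F19 and in the control strain WLH, both derived from the laboratory strain PO1f, with 2 libraries of poly(A) RNA for each. Both strains grew for 48 h at 30 °C with 2.4 mM furfural, a growth-inhibiting aldehyde released from plant biomass, in medium without leucine. F19 comes from work in which a genome-wide library of CRISPR interference strains, where an inactive Cas protein is guided to a gene to lower its transcription, was screened for tolerance of furfural and acetic acid. The labels name neither the gene repressed in F19 nor other alleles of the strains, and all libraries are from furfural cultures. They do not say that replicate libraries were grown separately, so p-values measure the spread between libraries, which may be technical.

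An mRNA is usually destroyed in steps. Its poly(A) tail is shortened by the deadenylases PAN2-PAN3 and CCR4-NOT. The body is then degraded from the 5′ end, after the decapping enzyme has removed the cap, or from the 3′ end by the RNA exosome, a ring of subunits that threads RNA to a nuclease. The Ski complex feeds cytoplasmic RNA to the exosome and the TRAMP complex feeds it nuclear RNA. Surveillance pathways send faulty mRNAs into the same machinery, with release factors and their relatives reading the stalled or terminating ribosome, while the cleavage and polyadenylation factors make the 3′ end in the first place. Names used here are those of the orthologs in Saccharomyces cerevisiae, or in human for CPSF5, PABPN1, PYM and SRRM1, read from the ortholog number that the deposited annotation gives each gene. The annotation itself describes 25 of the 65 as hypothetical, and the roles are those known for the orthologs.

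The label holds for most of the genes by their ortholog numbers: 13 belong to the exosome and its cofactors, 7 to the TRAMP and Ski complexes, 11 to the deadenylases, 7 to decapping, 4 to release and surveillance, 17 to 3′ end formation, including the poly(A)-binding proteins, and 4 to the exon junction and mRNA export. The remaining 2 sit at the edge of the label. BKA90DRAFT_143081 (ABD1) encodes the enzyme that methylates the mRNA cap, and did not pass (log2 fold change 0.08; adjusted p = 0.616 in edgeR). BKA90DRAFT_137758 carries the ortholog number of the chaperone DnaK, which the pathway map holds as a part of the bacterial RNA-degrading complex, and its cellular component terms name the mitochondrial matrix. No gene with the ortholog number of UPF1 or UPF3, the partners of UPF2 in nonsense-mediated decay, was among the 65.

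All 65 genes passed the filter on low counts, with between 109 and 21103 counts in any library. Library totals ranged from 18268878 to 24165223 counts, and the 65 genes together took 0.703% to 0.737% of the counts on genes in each library. The counting error of the lowest of these counts is 9.58%. In no strain did the libraries of 1 gene differ by more than 1.5-fold. Values are CPM (counts relative to the library total, scaled with TMM factors, which assume that most genes keep their share), and changes were tested with edgeR's quasi-likelihood test over all 6414 genes with enough counts, with Benjamini-Hochberg adjusted p-values and a threshold of 0.05. In RNA from a whole culture, fewer cells holding a transcript and less of it per cell cannot be told apart.

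In F19, 26 of the 65 genes fell, 3 rose and 36 did not pass. The falls were 40% of the genes against 25.5% of all genes tested, and the rises 4.62% against 25.9%. In either direction 29 genes were called, 44.6% against 51.4% of all genes. Of the 65, 5 genes passed with a change of at least 2-fold, all lower, where 19.6% of all genes passed at that size. The CPM of the strains did not overlap for 53 of the 65 genes, against 79.5% of all genes. The log2 fold changes ranged from -2.02 to 0.65 with a median of -0.26, while the median over all genes was 0.01. Split into equal parts, the longest of all genes had a median of 0.16 and those with the highest level per length one of -0.21, and the 65 genes were somewhat longer (median 1648 against 1416.5 exonic bases) and slightly higher (42.2 against 37.2 CPM per kilobase). The part of length and level in the difference was not tested.

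These directions are relative to TMM scaling. With library totals alone, all genes shifted to a median of 0.24, and 14 of the 65 genes were then called higher (21.5%, against 37.7% of all genes) and 14 lower (21.5%, against 16.6%). The median of the 65 stayed 0.27 below that of all genes on the log2 scale under both scalings. No gene called under TMM changed direction in any of the 15 alternatives. Without WLH replicate 1 there were 14 falls and 1 rise (21.5% and 1.54%, where 15.4% of all genes were called in each direction). With WLH replicate 2 left out there were 13 falls, 20% of the 65 genes against 13.4% of all genes, and 0 rises, against 12.6%.

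**Figure D1:**
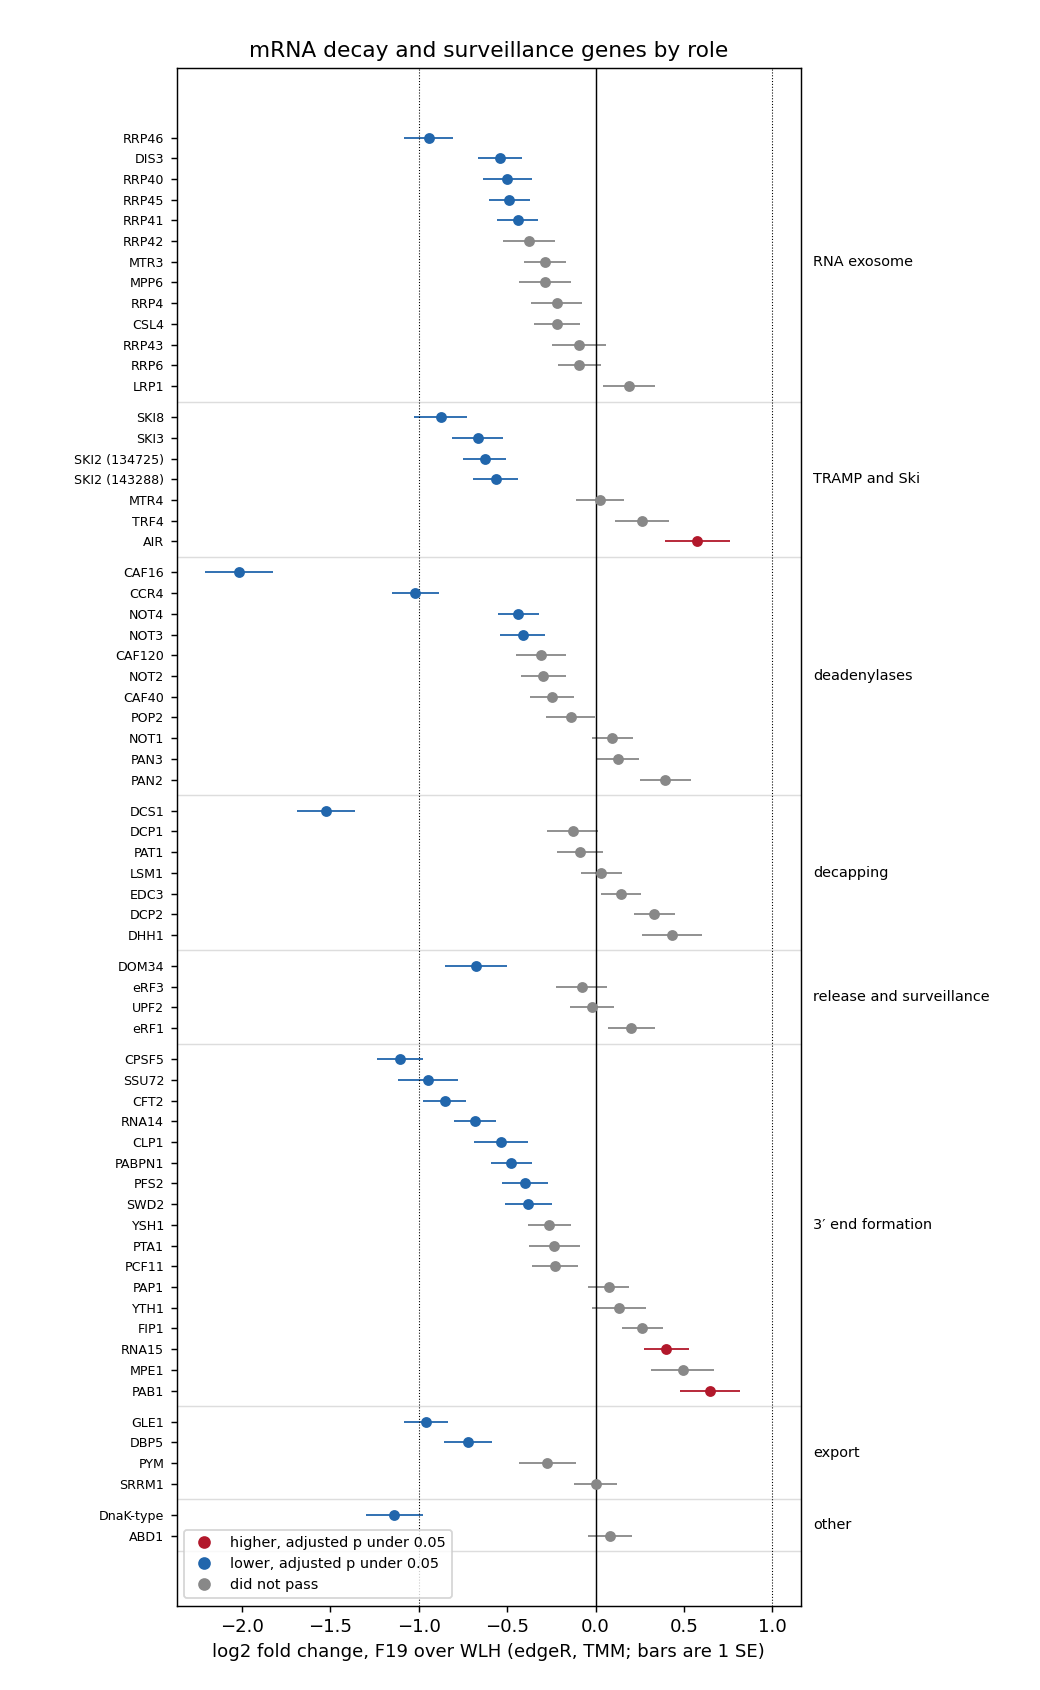
Log2 fold change of each of the 65 genes (F19 over WLH, edgeR with TMM scaling, 2 libraries a strain) with 1 SE, ordered within each role. Blue points passed an adjusted p of 0.05 as lower (26), red as higher (3) and grey did not pass (36); dotted lines mark 2-fold. With library totals in place of TMM every point moves right by about the same amount. In each direction 14 genes are then called (21.5%, against 37.7% of all genes higher and 16.6% lower).

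The largest fall was in the deadenylase group, in a gene that is not one of its catalytic subunits. CAF16, an ATP-binding protein of the CCR4-NOT complex (BKA90DRAFT_138377, scaffold ML756008.1, 178549 to 179460, plus strand), stood at 94.9 and 137 CPM in the WLH libraries and at 28.4 and 28.9 CPM in the F19 libraries. It fell 4.05-fold, or -2.02 ± 0.19 on the log2 scale (SE; edgeR adjusted p = 0.00059), and the strains lay well apart although the WLH libraries differed from each other. CCR4, one of the catalytic subunits that shorten the tail (BKA90DRAFT_132874, ML755978.1, 247490 to 249905, minus strand), stood at 128 and 137 CPM in WLH and at 70.8 and 59.8 CPM in F19. All F19 values were below all WLH values, and CCR4 fell 2.02-fold (log2 fold change -1.02 ± 0.13 SE; edgeR adjusted p = 0.00134).

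The remaining CCR4-NOT genes moved less or did not pass. POP2, the other catalytic subunit (BKA90DRAFT_141942), had 114 and 117 CPM in WLH and 115 and 93.6 in F19, so the strains overlapped (adjusted p = 0.42 in edgeR). NOT1, the scaffold on which the complex is built (BKA90DRAFT_103909), had 96.2 and 89.9 CPM in WLH against 99.4 and 99.5 in F19 (adjusted p = 0.51 in edgeR). NOT3 and NOT4, the latter a ubiquitin ligase, fell 1.33-fold and 1.35-fold, and their calls were lost without WLH replicate 1 (edgeR adjusted p = 0.0772 and 0.107) and without WLH replicate 2 (0.169 and 0.0674). NOT3 was also lost without F19 replicate 2 (0.0813) and NOT4 without F19 replicate 1 (0.0531). CAF120, NOT2 and CAF40 did not pass, at log2 fold changes of -0.31, -0.30 and -0.25. With library totals NOT1 was called higher (0.0452) and the calls of NOT3 and NOT4 were lost (0.277 and 0.177), which left 2 of the 9 genes lower and 1 higher. In all, 4 of 9 CCR4-NOT genes were called lower (44.4%, against 25.5% of all genes), and fewer when either WLH library was left out. Their median log2 fold change was -0.31, and -0.30 or -0.34 without WLH replicate 1 or 2. With library totals it was -0.07, where all genes had 0.24. There 22.2% of the 9 were lower and 11.1% higher, against 16.6% and 37.7% of all genes.

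PAN2 and PAN3, which begin tail shortening, went the opposite way in sign without passing. PAN2 (BKA90DRAFT_91725) had 28.1 and 29.5 CPM in WLH against 40.3 and 35.4 in F19. The log2 difference was 0.39 ± 0.14 (SE), with an edgeR adjusted p of 0.0555. It passed with upper-quartile factors (0.04955) and with library totals (0.012), where 37.7% of all genes were called higher. DESeq2 did not call it (adjusted p = 0.0759). With 1 library left out the log2 difference was 0.29 to 0.49, and it passed only without F19 replicate 2. PAN3 (BKA90DRAFT_141987) had 145 and 147 CPM in WLH against 163 and 155 in F19 (edgeR adjusted p = 0.394; 0.0392 with library totals).

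Of the 7 decapping genes, 1 passed the test (14.3%, against 51.4% of all genes in either direction). It was DCS1, the scavenger enzyme that hydrolyses the cap left over after an mRNA has been degraded from its 3′ end (BKA90DRAFT_137554, ML756002.1, 50894 to 51952, plus strand). DCS1 stood at 25.5 and 25.9 CPM in WLH and at 9.06 and 8.79 CPM in F19, so the libraries of a strain nearly coincided. It fell 2.88-fold (log2 fold change -1.52 ± 0.16 SE; edgeR adjusted p = 0.000761). Its coordinates overlap those of a neighbouring gene on the opposite strand by 29 bases, and the counting is not stated to use strand.

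The decapping enzyme and its activators, which act on intact mRNAs, did not follow DCS1. The catalytic subunit DCP2 (BKA90DRAFT_104781) had 90.9 and 91.8 CPM in WLH and 110 and 121 CPM in F19. Its adjusted p in edgeR was 0.0500055, just short of the threshold. DCP2 passed with median-ratio factors (0.0497), upper-quartile factors (0.041), no count filter (0.049) and library totals (0.00696). It did not pass with a filter of 50 counts in 2 libraries (0.0507) or in DESeq2 (adjusted p = 0.0747). Nor did it pass when any 1 library was left out, at log2 fold changes from 0.27 to 0.39. DHH1, a helicase that promotes decapping (BKA90DRAFT_135483), had 37.5 and 43.3 CPM in WLH and 47.2 and 61.6 in F19 (edgeR adjusted p = 0.0694). That gene passed in edgeR with the replicate number as a block (0.0437) and with library totals (0.0153). It did not pass with median-ratio factors (0.0679), upper-quartile factors (0.0652) or in DESeq2 (adjusted p = 0.0752). With 1 library left out its log2 fold change was 0.24 to 0.60, and it passed only without F19 replicate 1. The partner subunit DCP1 (BKA90DRAFT_134120) had 40.3 and 48.2 CPM in WLH and 39.9 and 41.1 in F19, so the strains overlapped (adjusted p = 0.482 in edgeR). The enhancer EDC3 (BKA90DRAFT_139031, adjusted p = 0.314 in edgeR), the scaffold PAT1 (BKA90DRAFT_100651, 0.588) and LSM1, which gives the cytoplasmic LSM ring its identity (BKA90DRAFT_143051, 0.829), had log2 fold changes of 0.14, -0.09 and 0.03. EDC3 passed with library totals (0.0277).

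**Figure D2:**
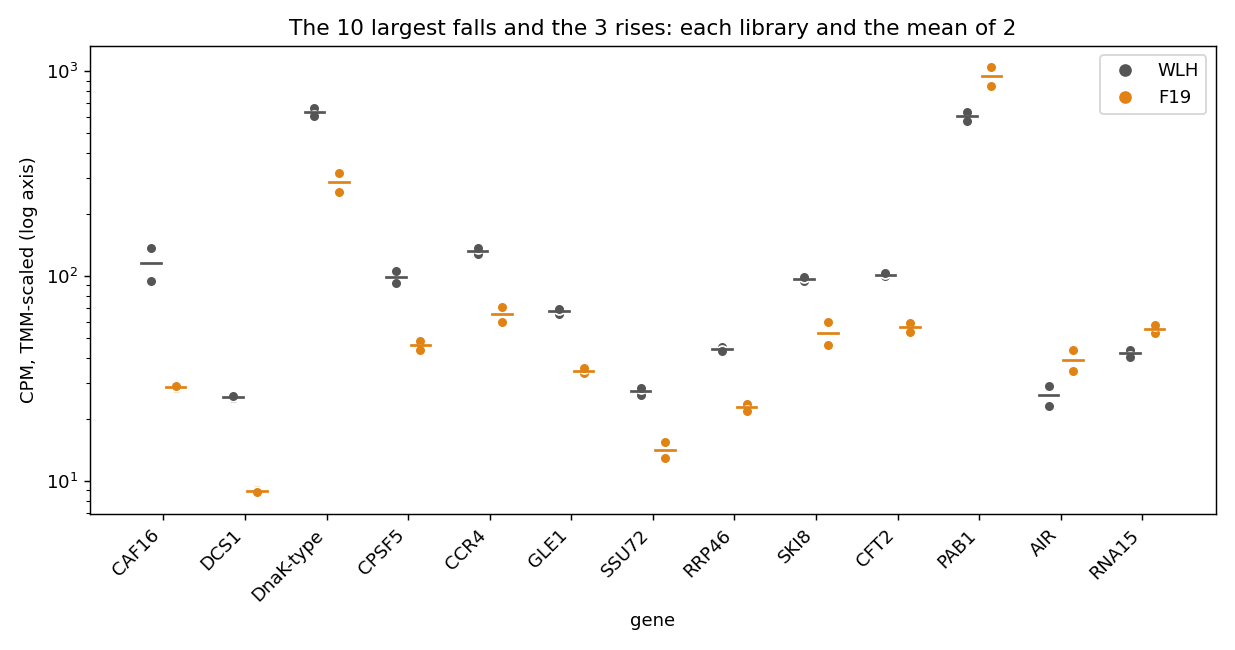
CPM (TMM-scaled, log axis) in each library for the 10 largest falls and the 3 rises that passed; dots are libraries and bars the mean of 2 per strain. WLH (grey) and F19 (orange) do not overlap for any of these genes; across all genes tested, 79.5% have no overlap between the strains.

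All 4 genes with ortholog numbers of the Ski complex fell, where 25.5% of all genes did. The complex consists of a helicase, a scaffold and a WD40 protein, and opens RNA for the cytoplasmic exosome. SKI8, its WD40 subunit (BKA90DRAFT_136432, ML755994.1, 224003 to 225306, plus strand), stood at 94.2 and 99.1 CPM in WLH and at 59.4 and 45.9 in F19, and fell 1.84-fold (log2 fold change -0.88 ± 0.15 SE; edgeR adjusted p = 0.00356). It shares 77 bases with a gene on the opposite strand. SKI3, the scaffold (BKA90DRAFT_165439), stood at 321 CPM in both WLH libraries and at 221 and 184 in F19, and fell 1.59-fold (edgeR adjusted p = 0.00824; 0.0592 and 0.0617 when WLH replicate 1 or 2 was left out).

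The ortholog number of the SKI2 helicase is carried by 2 genes, and which of them serves the Ski complex is not given by the number. BKA90DRAFT_134725 fell 1.54-fold, from 158 and 173 to 106 and 108 CPM (edgeR adjusted p = 0.00531; 0.0522 without WLH replicate 2). BKA90DRAFT_143288 fell 1.48-fold, from 62.1 and 68.3 to 42.5 and 45.7 CPM (edgeR adjusted p = 0.00994; 0.0833 without WLH replicate 2 and 0.0671 with library totals). For each of the 4 genes both F19 libraries were below both WLH libraries. Of all genes, 79.5% had no overlap between the strains, in either direction. The median log2 fold change of the 4 genes was -0.65, or -0.41 with library totals, where all genes had 0.01 and 0.24. With library totals 3 of the 4 were called lower (75%, against 16.6% of all genes). Fewer falls were called when either WLH library was left out, though at a share above that of all genes, and SKI8 kept its call. Dropping WLH replicate 1 or 2 gave a median of -0.68 or -0.61, where all genes had 0.005 or 0.003.

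Of the 3 genes of the TRAMP complex, the nuclear counterpart, 1 passed, as a rise (33.3%, against 25.9% of all genes called higher). MTR4, the helicase of the TRAMP complex (BKA90DRAFT_139435), had 233 and 203 CPM in WLH and 229 and 214 in F19, so the strains overlapped (adjusted p = 0.894 in edgeR). The gene with the number of the RNA-binding subunits AIR1 and AIR2 (BKA90DRAFT_142259), named because it is 1 of only 3 rises, stood at 29.0 and 23.3 CPM in WLH and at 34.4 and 43.6 in F19. It rose 1.49-fold (edgeR adjusted p = 0.0352), a call lost without F19 replicate 2 (0.129), WLH replicate 1 (0.0658) or WLH replicate 2 (0.206). The poly(A) polymerase of the complex, TRF4 (BKA90DRAFT_137590), had 61.8 and 50.7 CPM in WLH and 62.0 and 73.3 in F19 (adjusted p = 0.185 in edgeR; 0.0279 with library totals).

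In the exosome, 5 of 13 genes fell and 0 rose (38.5% and 0%, against 25.5% and 25.9% of all genes). With library totals 1 was called lower and 1 higher (7.69% each, against 16.6% and 37.7% of all genes). All 9 subunits of the ring and its RNA-binding cap had a negative log2 fold change, from -0.94 to -0.09. Over all genes tested, 3185 of 6414 were negative. With library totals 6 of the 9 remained negative, against 2352 of 6414. Of the 9, 4 passed as lower (44.4%, against 25.5% of all genes), and 1 with library totals (11.1%, against 16.6%). Fewer passed when either WLH library or F19 replicate 2 was left out, at a share no higher than that of all genes. RRP46, a ring subunit (BKA90DRAFT_135541, ML755989.1, 178188 to 178917, plus strand), stood at 45 and 43 CPM in WLH and at 23.8 and 21.9 CPM in F19. It fell 1.92-fold (log2 fold change -0.94 ± 0.14 SE; edgeR adjusted p = 0.00207), and the other 3 ring and cap genes that passed, RRP40, RRP41 and RRP45, fell 1.36-fold to 1.41-fold.

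The nucleases of the exosome differed in call. DIS3, the processive nuclease attached to the ring (BKA90DRAFT_133807), stood at 163 and 147 CPM in WLH and at 111 and 102 in F19, and fell 1.45-fold (edgeR adjusted p = 0.0113; 0.0817 without WLH replicate 1 and 0.0847 with library totals). RRP6, the nuclear nuclease (BKA90DRAFT_138969), had 98.9 and 87.3 CPM in WLH and 85.2 and 89.7 in F19, so the strains overlapped (adjusted p = 0.559 in edgeR). Its nuclear cofactors LRP1 and MPP6 had log2 fold changes of 0.19 and -0.29 and did not pass, though LRP1 was called higher with library totals (0.0429).

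Among the genes that read the ribosome, DOM34 fell and the release factors did not pass. DOM34, a relative of eRF1 that recognises stalled ribosomes (BKA90DRAFT_141506), stood at 68.9 and 69.9 CPM in WLH and at 50.7 and 36.2 in F19, a fall of 1.60-fold (edgeR adjusted p = 0.017). The call was lost without WLH replicate 1 (0.0869) or WLH replicate 2 (0.098) and with library totals (0.0873). The release factor eRF1, which recognises stop codons (BKA90DRAFT_138097), had 266 and 245 CPM in WLH and 281 and 307 in F19 (edgeR adjusted p = 0.236; 0.0262 with library totals). Its partner, the GTPase eRF3 (BKA90DRAFT_139252), had 620 and 580 CPM in WLH and 601 and 535 in F19 (adjusted p = 0.674 in edgeR). UPF2, the only nonsense-mediated decay factor of the set (BKA90DRAFT_138452), had 65.8 and 66.2 CPM in WLH and 68.9 and 61.02 in F19, and the strains overlapped (adjusted p = 0.892 in edgeR).

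The cleavage and polyadenylation genes were called in both directions, with 8 of 17 lower and 2 higher. These are 47.1% and 11.8%, against 25.5% and 25.9% of all genes. With library totals 4 were lower and 4 higher (23.5% each, against 16.6% and 37.7% of all genes). CPSF5, whose human ortholog binds the upstream signal of the poly(A) site (BKA90DRAFT_138199, ML756007.1, 82871 to 83954, plus strand), stood at 92.8 and 106 CPM in WLH and at 48.2 and 43.8 in F19. It fell 2.15-fold (log2 fold change -1.11 ± 0.13 SE; edgeR adjusted p = 0.000994). SSU72, a phosphatase of the RNA polymerase II tail (BKA90DRAFT_134293), stood at 26.2 and 28.4 CPM in WLH and at 15.4 and 12.9 in F19, and fell 1.93-fold (edgeR adjusted p = 0.00384). CFT2 and RNA14, structural subunits named after their values were seen, fell 1.81-fold and 1.61-fold and kept the call without each library in turn. CFT2 overlaps a gene on its own strand by 83 bases. CLP1, PFS2 and SWD2 fell 1.30-fold to 1.45-fold, and none of these 3 calls was kept when any 1 library was left out.

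The endonuclease and the poly(A) polymerase of this step did not pass. YSH1, the endonuclease that cuts the transcript (BKA90DRAFT_133579), had 93.5 and 100.1 CPM in WLH and 85.3 and 76.2 in F19 (adjusted p = 0.114 in edgeR). PAP1, the polymerase that adds the tail (BKA90DRAFT_104719), had 73.4 and 72.1 CPM in WLH and 74.5 and 78.8 in F19 (adjusted p = 0.612 in edgeR). RNA15, an RNA-binding partner of RNA14 and one of the rises of the group (BKA90DRAFT_135730), rose 1.32-fold, from 43.4 and 40.4 to 53.0 and 57.7 CPM (edgeR adjusted p = 0.0368; 0.108 without F19 replicate 2, 0.107 and 0.183 when WLH replicate 1 or 2 was left out). The remaining 5 genes of the step, MPE1, FIP1, YTH1, PCF11 and PTA1, did not pass, at log2 fold changes from -0.23 to 0.49. MPE1 was called higher with library totals (0.0149) and without WLH replicate 1 (0.0368), and FIP1 with library totals (0.0121).

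The poly(A)-binding proteins were called in opposite directions. PAB1, which coats the tail in the cytoplasm and in yeast links it to translation and to deadenylation (BKA90DRAFT_141116, ML756038.1, 54084 to 56307, minus strand), stood at 636 and 572 CPM in WLH and at 844 and 1048 in F19. It rose 1.57-fold, or 0.65 ± 0.17 on the log2 scale (SE; edgeR adjusted p = 0.017), the largest rise of the 65. The call was lost without WLH replicate 1 (0.088) or WLH replicate 2 (0.154), and was kept with library totals (0.00452). PABPN1, the nuclear type (BKA90DRAFT_94991), fell 1.39-fold, from 78.8 and 77.6 to 56.8 and 55.8 CPM (edgeR adjusted p = 0.0129). That fall was lost without WLH replicate 1 (0.0758) or WLH replicate 2 (0.0717) and with library totals (0.124).

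Of the 4 genes of export and the exon junction, 2 fell (50%, against 25.5% of all genes), and these 2 act together at the nuclear pore in yeast. The helicase DBP5, which strips proteins from mRNA as it leaves the pore (BKA90DRAFT_91879), stood at 171 and 149 CPM in WLH and at 103 and 91.0 in F19, and fell 1.65-fold (edgeR adjusted p = 0.0048). GLE1, which activates DBP5 (BKA90DRAFT_82146, ML755995.1, 237186 to 239045, minus strand), stood at 65.4 and 68.9 CPM in WLH and at 33.5 and 35.6 in F19, and fell 1.94-fold (log2 fold change -0.96 ± 0.13 SE; edgeR adjusted p = 0.00135). Both kept the call without each library and with library totals. PYM and SRRM1 did not pass, at log2 fold changes of -0.27 and 0.

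At the edge of the label, BKA90DRAFT_137758 (ML756003.1, 200119 to 201060, plus strand), the gene with the number of DnaK, fell 2.2-fold, from 660 and 608 to 318 and 258 CPM (edgeR adjusted p = 0.00172). Its neighbour on the opposite strand, BKA90DRAFT_137757, has the same number, is described as a heat shock 70 protein and is left out by the annotation rule for that reason; it was also lower (log2 fold change -0.84 ± 0.16 SE; edgeR adjusted p = 0.00448). The gene models lie directly beside each other, and without strand their reads near the junction cannot be told apart. Without BKA90DRAFT_137758 there remain 4 falls of at least 2-fold, those of CAF16, DCS1, CPSF5 and CCR4. The authors' deposited table of significant genes, in which the smallest change is 2-fold, holds the same 5 of the 65 genes, with log2 fold changes of -2.01 for CAF16, -1.52 for DCS1, -1.13 for BKA90DRAFT_137758, -1.10 for CPSF5 and -1.01 for CCR4.

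Levels were compared between genes as CPM per kilobase of exonic length, averaged over the 4 libraries. The DnaK-type gene was highest at 732, followed by PAB1 at 348, eRF3 at 251, eRF1 at 176, LSM1 at 160 and PAT1 at 130, and 8 of the 65 genes exceeded 100 CPM per kilobase. The lowest were SRRM1 at 9.79, PAN2 at 10.6, the SKI2 gene BKA90DRAFT_143288 at 14.2 and NOT1 at 15.3, with 7 genes below 20. On this scale the ring and cap of the exosome were even: the highest of the 9 genes exceeded the lowest by 1.82-fold to 2.33-fold in each library. The decapping genes were uneven, and more so in F19, where DCS1 was lowest and LSM1 was 19.1-fold and 19.4-fold higher, than in WLH, where DHH1 was lowest and LSM1 was 7.93-fold and 7.49-fold higher.

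**Figure D3:**
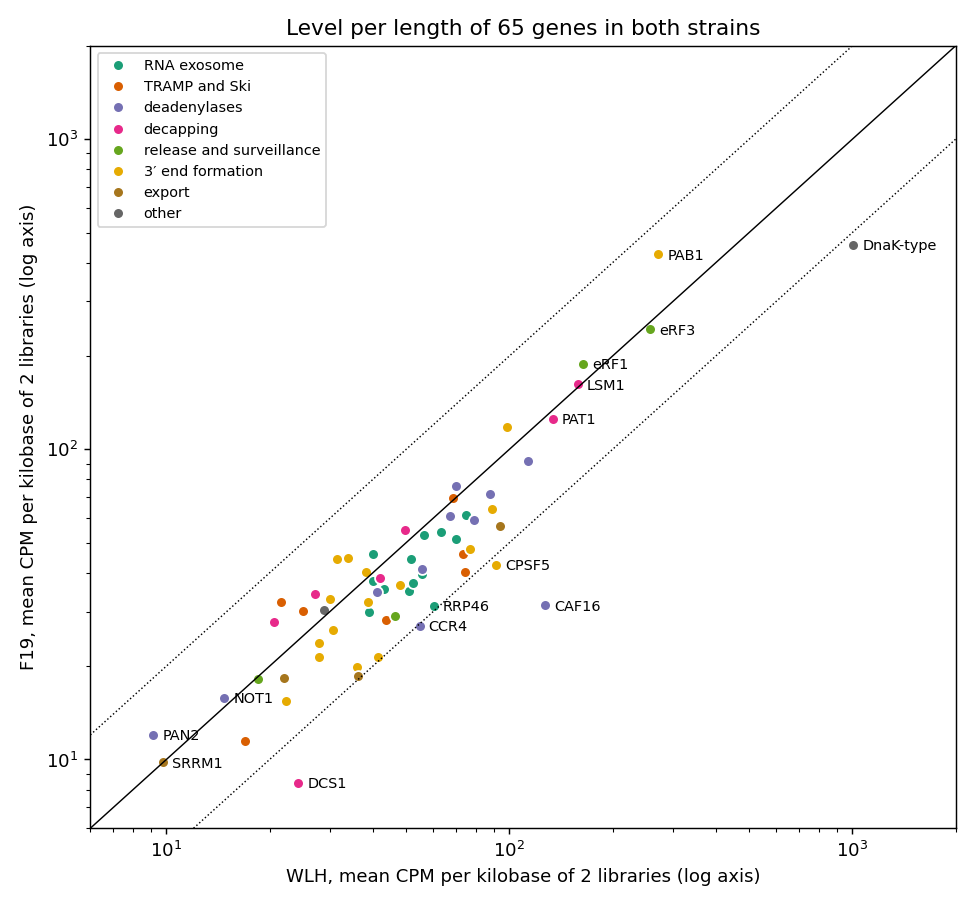
Mean level per length (CPM per kilobase, 2 libraries a strain) of the 65 genes in WLH (x axis) and F19 (y axis), both log axes, coloured by role. The solid line marks equal levels and the dotted lines 2-fold; CAF16, DCS1, CPSF5, CCR4 and the DnaK-type gene lie beyond the lower dotted line, and PAB1 lies above the solid line. The TMM scaling sets where the solid line runs.

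Ratios between genes of 1 library do not depend on the scaling between libraries. The pairs given here were chosen for related roles, after the values were seen, and are a description with no test; a ratio shows unequal change and not which gene changed. Per length, CCR4 stood at 0.798 and 0.83 of POP2 in WLH and at 0.435 and 0.453 in F19. For DCS1 over DCP2, which handle the cap after and before decay, the ratios were 0.893 and 0.9 in WLH and 0.264 and 0.232 in F19. The strains were also separate for SKI3 over MTR4, at 1.00 and 1.15 in WLH and 0.702 and 0.624 in F19, and for DOM34 over eRF1, at 0.269 and 0.297 in WLH and 0.188 and 0.122 in F19. PAB1 over PABPN1 went the other way, with 3.19 and 2.91 in WLH and 5.87 and 7.42 in F19. The ratio of the release factors, eRF1 over eRF3, moved least of the 10 pairs, from 0.64 and 0.631 to 0.698 and 0.857.

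**Figure D4:**
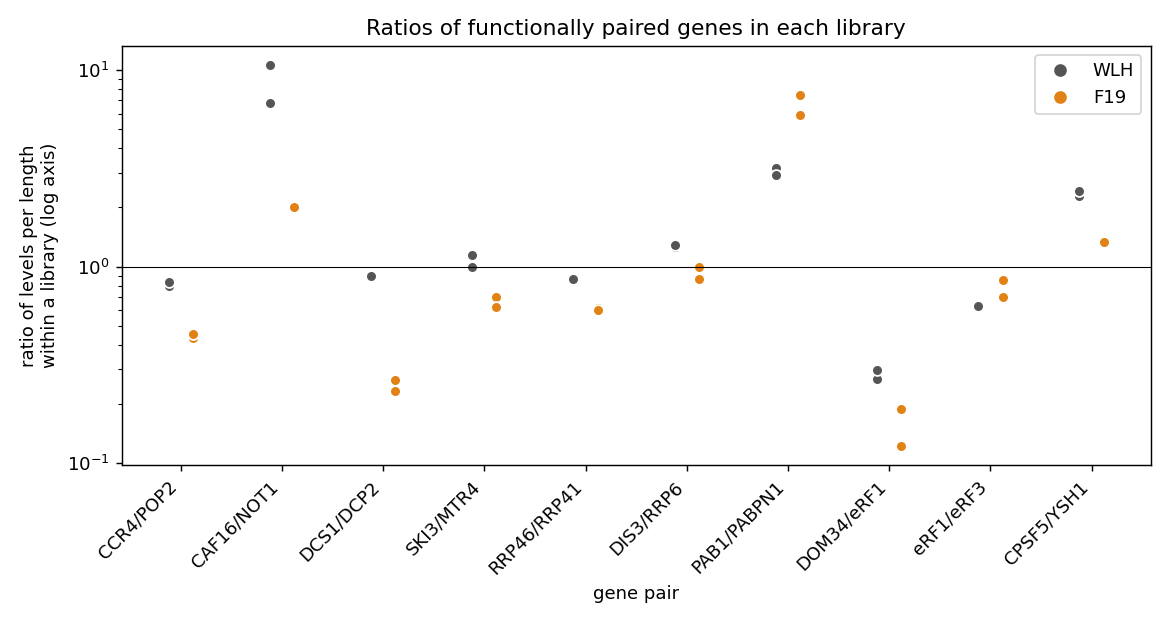
Ratio of levels per length (log axis) of gene pairs with related roles in each library, WLH in grey and F19 in orange. DCS1 over DCP2 lies near 0.9 in WLH and at 0.264 and 0.232 in F19, while PAB1 over PABPN1 is higher in F19. No test was made on these ratios.

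The genes of both pathways that the annotation rule leaves out are given for comparison. Of these 30, 14 fell, 2 rose and 14 did not pass. The falls were 46.7% and the rises 6.67%, against 25.5% and 25.9% of all genes. Fewer falls were called when either WLH library was left out, at a share near that of all genes. The median log2 fold change was -0.35, and -0.37 or -0.34 without WLH replicate 1 or 2. With library totals it was -0.12, where all genes had 0.24. The 5′ to 3′ exonucleases did not pass: XRN1, which degrades decapped mRNA in the cytoplasm (BKA90DRAFT_141210), stood -0.29 ± 0.15 from WLH on the log2 scale (SE; edgeR adjusted p = 0.141), and the nuclear RAT1 (BKA90DRAFT_114017) -0.34 ± 0.13 (SE; 0.0693). Of the 6 LSM genes left out as spliceosome components, 2 fell (33.3%, against 25.5% of all genes) and 4 did not pass. Among 15 genes outside both pathways whose description or terms name decay, decapping or polyadenylation, 4 fell and 2 rose (26.7% and 13.3%, against 25.5% and 25.9% of all genes). With library totals 1 fell and 2 rose (6.67% and 13.3%, against 16.6% and 37.7% of all genes). More falls were called without F19 replicate 1, at a share above that of all genes. Fewer were called when any other library was left out, at a share below that of all genes. RAI1, the partner of RAT1 (BKA90DRAFT_132382), had a fall of -0.83 ± 0.16 on the log2 scale (SE; edgeR adjusted p = 0.0056). These 15 had a median of -0.23, which was 0 to 2 decimals with library totals, where all genes had 0.24.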

How the data were processed

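Poly(A) RNA of 4 libraries was sequenced as paired ends, per the labels' protocols. The submitters' processing notes list HISAT2 2.2.1, HTSeq 0.6.1, cutadapt 1.9.1 and DESeq2 (no version). Genome build, settings and strand use: not given in the sources used here. Per the file headers, the authors deposited raw counts, FPKM and exonic length per gene, and, for genes they called significant, a mean normalised signal, a linear fold, a log2 fold change, a test statistic (score) and p-values. The counts on 3 features that name no gene (0.134% to 0.387%) were left out. Sample columns left unmapped numbered 0; the WLH replicate 1 column is spelled with a letter I for the digit. No sequence is shown, since 0 identifiers are in the reference table.

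The deposited counts were tested with edgeR 4.0.16 (R 4.3.3; filterByExpr, TMM factors of 0.916 to 1.1, quasi-likelihood, strain as the only term). Each SE is the size of the log2 change over the square root of the F statistic. The biological coefficient of variation was 14.1%. Alternatives used DESeq2 1.42.0, limma 3.58.1 on log2(FPKM + 1) with a mean FPKM of at least 1, other factors and filters, a replicate block and leaving out each library. On counts simulated for 6414 genes of this comparison, 200 of them changed, edgeR recovered 89% of 2-fold and 99% of 4-fold changes. Of its calls, 5.53% were false. In the data 51.4% of all genes were called, so these rates may not carry over. Recovery of changes under 2-fold is not given. The genes, roles and lists were chosen with earlier results of these data known. Values are given in full for genes past 2-fold, the 2 largest changes of a role and the central enzyme of each step. CFT2, RNA14, RNA15, AIR, TRF4, PABPN1, NOT3, NOT4, RRP40, RRP41, RRP45, LRP1, MPP6, PYM and SRRM1 were named after their values were seen. So were CAF120, NOT2, CAF40, CLP1, PFS2, SWD2, MPE1, FIP1, YTH1, PCF11, PTA1, ABD1, RAI1 and BKA90DRAFT_137757. Terms for extracellular exosomes were disregarded.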

Additional observations from a re-analysis of the deposited data

Results flagged for a closer look

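Of the counts in the F19 libraries, 0.333% and 0.387% fell on the 3 features that name no gene, which no comparison used, against 0.147% and 0.134% in the WLH libraries. The features' nature was not established. With 2 libraries a strain, no library could be tested as an outlier.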

How the results depend on the processing

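Of the 29 calls among the 65 genes, 12 held in all 15 alternatives, all of them falls: those of CAF16, DCS1, CPSF5, CCR4, GLE1, DBP5, SSU72, CFT2, RNA14, RRP46, SKI8 and BKA90DRAFT_137758. With library totals, 14 rose and 14 fell (median -0.024; all genes 2419 higher, 1066 lower). With limma on FPKM + 1, 13 rose and 14 fell (median -0.029; all genes 2376 and 1056), with a pseudocount of 0.1, 13 and 14 (-0.030; 2374 and 1052), and without a filter, 12 and 12 (-0.029; 2221 and 1011). The limma runs took FPKM as deposited, with no TMM factor, and the run with library totals had none either. These runs therefore do not vary the scaling independently. The cause of the shift was not tested. Rises numbered 6 with upper-quartile factors (9.23%, against 26.7% of all genes) and 5 without a count filter (7.69%, against 26.3%). Leaving out each library gave 0 to 4 rises, 13 to 23 falls, and over all genes 1670 to 3096 calls, 810 to 1509 higher and 860 to 1587 lower, lowest without WLH replicate 2, a strain left with 1 library sharing the other strain's spread. The replicate number as a block gave 4 rises and 25 falls (6.15% and 38.5%, against 26.5% and 26% of all genes). Among the 15 genes outside both pathways it gave 7 falls in place of 4 (46.7%, against 26% of all genes). Same-numbered libraries deviated from their strain's mean with r = -0.106, so the crossed pairing, chosen after seeing the data, was run as well. It gave 5 rises and 26 falls (7.69% and 40%, against 27.9% and 27.4% of all genes).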
